A study of Mus musculus with 18 samples.

Results

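Liver RNA of 4 male C57BL/6J mice on a vitamin B2-deficient diet and treated with fenofibrate (B2D+FF) was compared with that of 5 male C57BL/6J mice on the same diet without the drug (B2D). Together these are 9 of the 18 samples of the study, and the members were chosen by diet alone, as every sample labelled riboflavin-deficient. All mice were wild type, started the diet at 4 weeks of age, gave 1 library each and were fasted overnight before the liver was taken. B2D mice ate the diet for 1 month. B2D+FF mice ate it for 9 weeks, were given 300 mg/kg fenofibrate by gavage every day in weeks 7 to 9, and received the last dose 2 h before harvest. The drug therefore cannot be told apart from the longer time on the diet, the greater age at harvest, the gavage and the separate table in which each experiment was deposited. The other 9 samples were control-diet mice without fenofibrate (Ctrl, 5 mice, 1 month) and with it (Ctrl+FF, 4 mice, 9 weeks), and they were used to ask which differences were larger on the deficient diet.

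Fenofibrate is a fibrate whose active acid binds PPARα, a nuclear receptor that pairs with RXR and raises the transcription of genes for fatty acid import, activation, oxidation and storage. In the fasted liver PPARα is switched on by fatty acids released from fat tissue and sustains oxidation and ketone production. Riboflavin is the dietary precursor of FAD, the cofactor that acyl-CoA dehydrogenases and other flavoproteins use to pass electrons on. The comparison asks how far the PPARα program is raised by its drug ligand when the diet lacks that precursor.

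Libraries held between 15320729 and 19598461 reads on genes in B2D and between 16947517 and 21898502 in B2D+FF. Values are FPKM (fragments assigned to a gene, divided by its length in kilobases and by the depth of the library), and both tables were put on 1 library-size scale over protein-coding genes before use. The libraries were liver by their markers, with albumin (Alb) at a mean of 24478 in B2D and 12481 in B2D+FF, and no exocrine pancreas marker had more than 8 reads in any library. The groups also differed in ways that reach across genes. Processed pseudogenes, the intronless copies of other genes, took 0.043 to 0.0543% of reads in B2D and 0.383 to 0.478% in B2D+FF, with 0.043 to 0.0504% in Ctrl and 0.346 to 0.423% in Ctrl+FF. With all gene types in the fit, 455 of 635 processed pseudogenes were higher in B2D+FF and 12 were lower, so reads of genes with near-identical copies may have been assigned differently in the 2 tables, which was not tested. For this reason genes that share at least 10% of their transcript sequence with another gene are named as shared. Short genes also read higher in B2D+FF, with a median log2 difference of 0.38 in the shortest 10% of genes (up to 1633 bases) and -0.12 in the longest 10% (from 9563 bases). On the control diet the same medians were 0.25 and -0.03. Results are therefore also given with a smooth trend on gene length and GC content removed from each library, called the trend-removed fit. The 3rd B2D library had the fewest genes above 0 (15866, against 18280 to 19479 in the other B2D libraries) and the steepest slope on length.

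**Figure D1:**
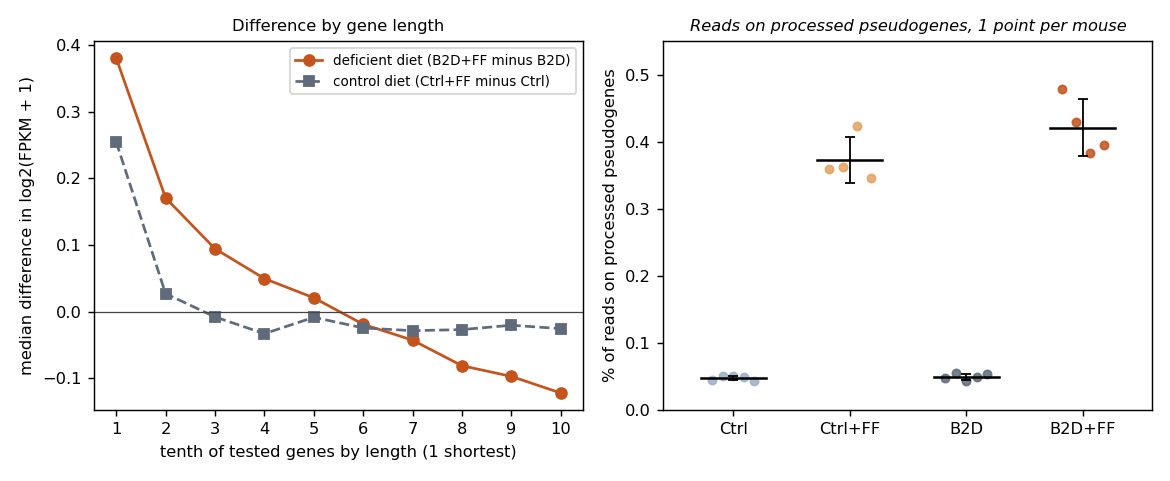
Left, the median difference in log2(FPKM + 1) with fenofibrate (y axis) in 10 equal classes of the tested genes by length (x axis), on the deficient diet (circles) and the control diet (squares). It falls from 0.38 to -0.12 on the deficient diet. Right, the percent of reads on processed pseudogenes (y axis) in each mouse of the 4 groups, with the mean and SD: every B2D+FF library lies above 0.38% and every B2D library below 0.055%.

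Summed levels of marker genes differed in range between the groups for some cell types, though none had an adjusted p under 0.05. The 14 hepatocyte markers summed to between 35670 and 49264 in B2D and to between 21569 and 25523 in B2D+FF, mostly through Alb, and 1 of them was called higher and 6 lower. For the 12 stellate cell and fibroblast markers the ranges were 80.8 to 116 and 43.2 to 80.3, and for the 7 erythroid markers 87.9 to 381 and 289 to 716. The erythroid ranges overlap (exact permutation p = 0.0476, adjusted p = 0.0823). Kupffer cell markers had overlapping ranges, 128 to 169 in B2D and 92.7 to 218 in B2D+FF. Over 19 such library measures the smallest p that an exact permutation test of 5 against 4 mice can give is 0.0159, two-sided, and the measures that reached it had an adjusted p of 0.0503. The part of these shifts in the results was not tested. In liver RNA, fewer cells of a type and less RNA per cell cannot be told apart.

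Fenofibrate-treated livers differed broadly from untreated ones on the deficient diet, with more genes higher than lower. Of 22046 protein-coding genes in the tables, 10548 had a mean of at least 0.5 in either group and were tested with limma on log2(FPKM + 1). Past a Benjamini-Hochberg adjusted p of 0.05, 2078 genes (19.7%) were higher in B2D+FF, 1252 (11.9%) were lower, and 7218 were not called. The groups did not overlap in 1610 of the higher and 935 of the lower genes. The filter was passed only through B2D+FF by 314 genes, among them Fabp3, Ucp3, Otop1, Hao2, Abcc4, Psat1, Chac1 and Mup18, and only through B2D by 373, and the direction of these was fixed by the filter. A log2 difference of at least 1 was reached by 440 of the higher genes (4.17%) and 139 of the lower (1.32%). In the trend-removed fit 20.9% were higher and 11.1% lower, and among genes with little shared sequence 18.3% and 12.1%. The balance of directions rests on the scaling: 62.4% of calls were higher here, against 51.1% when libraries were scaled by total reads on protein-coding genes, 51.3% with the values as deposited, 48.8% after quantile normalization and 40.5% after upper-quartile scaling, which moved the median of all genes to -0.10 from 0.004.

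Genes that bring fatty acids into the hepatocyte were among the large rises. Slc27a1, a fatty acid transport protein with acyl-CoA synthetase activity (GRCm38 chr8:71568882-71587302), read 5.19, 7.14, 6.84, 11.5 and 6.47 in B2D mice 1 to 5 and 86.3, 55.9, 96.2 and 123 in B2D+FF mice 1 to 4. No B2D+FF mouse came near the B2D range. The mean was 7.44 ± 2.41 (SD, n = 5) in B2D and 90.3 ± 27.7 (n = 4) in B2D+FF, a 12.1-fold rise (log2 difference 3.42 ± 0.23 SE, limma adjusted p = 1.28e-06). Cd36, the membrane fatty acid translocase (chr5:17781690-17888801), read 12.2, 25.3, 33.8, 108 and 21.4 without the drug and 262, 244, 219 and 335 with it. All treated mice were higher although B2D mouse 4 stood apart from its group, and the log2 difference was 3.07 ± 0.46 (limma adjusted p = 0.000469). Lpl, the lipase that frees fatty acids from circulating triglyceride and is low in adult hepatocytes, read 2.34, 4.91, 2.59, 1.92 and 2.2 in B2D and 33.7, 30.1, 21.7 and 37.4 in B2D+FF (11-fold, limma adjusted p = 1.18e-06). The groups did not overlap, and the highest B2D value was that of mouse 2, whose adipocyte marker sum of 16.6 compares with at most 0.402 in the other B2D mice.

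Among intracellular fatty acid binding proteins Fabp3 and Fabp4 rose, whereas Fabp2 (log2 difference 0.37, limma adjusted p = 0.269) and Fabp5 (0.25, limma adjusted p = 0.523) were not called. Fabp3, the heart-type binding protein (chr4:130308595-130315463), read 0.318, 1.98, 0, 0.0614 and 0 in B2D and 116, 68.5, 59.8 and 114 in B2D+FF. Every B2D library held at most 28 reads of it and every B2D+FF library at least 994, and it shares 40% of its transcript sequence with another gene. Fabp3 passed the filter only through B2D+FF, which fixed its direction. Its log2 difference was 6.03 ± 0.32 (limma adjusted p = 1.32e-07). Fabp4, best known from adipocytes, read 1.36, 18.2, 2.27, 2.3 and 1.6 in B2D and 147, 33.3, 33.6 and 82.9 in B2D+FF. The groups did not overlap, and B2D mouse 2 was again the highest of its group. Among the adipocyte markers, Adipoq had at most 3 reads in any B2D+FF library and Plin1 at most 10, while Cidea had up to 250. Slc27a4, another transport protein, rose 4.59-fold and Vldlr, a lipoprotein receptor, 7.08-fold. Over the 20 tested genes of fatty acid uptake and activation 12 were higher and 1 lower, with a median log2 difference of 0.73 against 0.004 for all genes tested. In the trend-removed fit the count was 13 and 1.

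**Figure D2:**
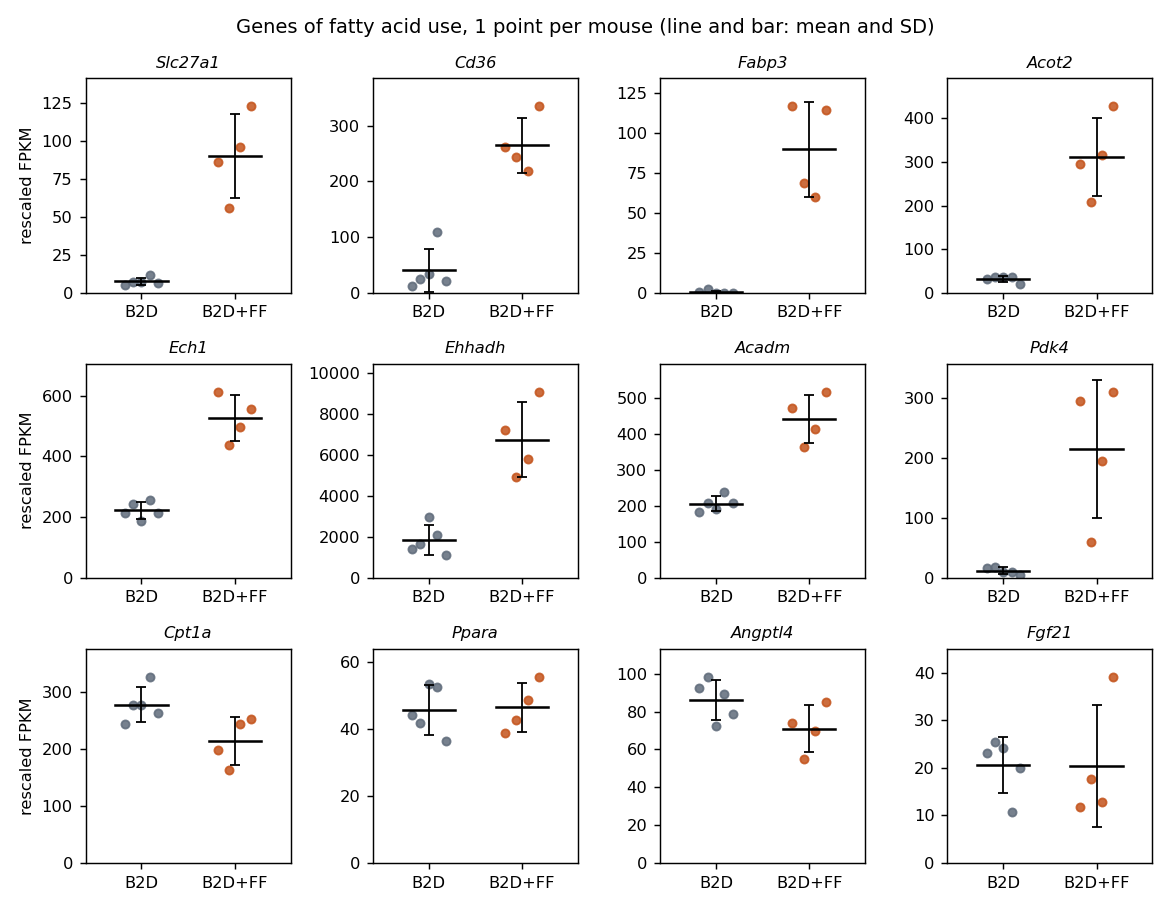
Rescaled FPKM (y axis) of 12 genes of fatty acid use in each of the 5 B2D and 4 B2D+FF mice, 1 point per mouse, with the mean (line) and SD (bar). The first 8 genes, Slc27a1 to Pdk4, are separated between the groups, whereas Cpt1a, Ppara, Angptl4 and Fgf21 overlap.

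Acyl-CoA thioesterases, which release free fatty acids from CoA and are classical targets of PPARα in rodent liver, had the highest median of the fatty acid lists in the main comparison, though not with the trend removed. Acot2, the mitochondrial member, read 31.8, 36.7, 34.9, 34.9 and 19.4 in B2D and 294, 208, 316 and 428 in B2D+FF. The lowest treated mouse was above every untreated one, and the rise was 9.88-fold (log2 difference 3.25 ± 0.22, limma adjusted p = 1.35e-06). Acot1, its cytosolic neighbour, read 140, 136, 144, 106 and 90 in B2D and 745, 409, 450 and 681 in B2D+FF, again without overlap (4.64-fold). These genes lie beside each other and share sequence (34.5% of Acot2 and 21.7% of Acot1), so single members are uncertain. Summed over Acot1 to Acot6 they took 740 to 1074 of every 1000000 reads in B2D and 2909 to 4503 in B2D+FF, however the reads were split among them. Such a sum, here and for other families, does not remove a difference between the 2 tables in whether reads that match several genes were counted, which was not tested. Of 12 tested thioesterases 10 were higher and none lower, with a median of 0.94 (0.72 with the trend removed). Of the 12, 2 passed the filter only through B2D+FF, and among the other 10 the count was 8 higher and none lower. Among the 4 with little shared sequence 3 were higher.

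The Cyp4 enzymes, which add the first oxygen to the far end of fatty acids, moved less and in both directions. Cyp4a10 read 2288, 2033, 3028, 3042 and 2335 in B2D and 4238, 2544, 4355 and 5099 in B2D+FF. Mouse 2 of the treated group lay inside the untreated range. Its log2 difference was 0.65 ± 0.21 (limma adjusted p = 0.0356), and 0.48 in the trend-removed fit (adjusted p = 0.0975). Cyp4a14 behaved likewise, with 5201, 4489, 6525, 4616 and 4666 in B2D and 7788, 5828, 7087 and 8733 in B2D+FF, where treated mouse 2 again overlapped (log2 difference 0.53 ± 0.17, limma adjusted p = 0.0321, and 0.0552 with the trend removed). Both calls were lost when B2D mouse 2 or 5, or B2D+FF mouse 1, 3 or 4, was left out. Cyp4a10 was also lost without B2D mouse 1, with adjusted p values up to 0.112 over the left-out fits, and Cyp4a14 without B2D mouse 4, with values up to 0.103. Both genes were already among the most abundant in untreated livers. The whole Cyp4a family, whose members share sequence, took 18279 to 24245 of every 1000000 reads in B2D and 23889 to 32309 in B2D+FF, and these ranges overlap. Cyp4f14, an enzyme that acts on leukotrienes and vitamin E, fell from 25.4 ± 7.83 to 3.86 ± 2.14 (limma adjusted p = 9.63e-05). In all, 8 of 13 tested Cyp4 genes were higher and 2 lower, and 6 and 2 with the trend removed. Among the 5 with little shared sequence 2 were higher and 1 lower, and with the trend removed as well none was higher and 2 were lower.

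Inside mitochondria, genes of β-oxidation rose as a group: 22 of 26 were higher and none lower, with a median log2 difference of 0.83 (22 and none in the trend-removed fit, median 0.81). Among the 24 above the filter in both groups 20 were higher and none lower. Acadm, the medium-chain acyl-CoA dehydrogenase and a flavoprotein, read 184, 209, 191, 238 and 209 in B2D and 471, 362, 414 and 518 in B2D+FF. The values of the 2 groups were well apart and the mean rose 2.14-fold (log2 difference 1.09 ± 0.14, limma adjusted p = 0.000183). Slc25a20, the carnitine-acylcarnitine carrier of the inner membrane, read 46.9, 58.4, 46, 63.9 and 48.1 in B2D and 144, 111, 115 and 150 in B2D+FF. It rose 2.47-fold with no overlap. Etfb, a subunit of the flavoprotein that collects electrons from the dehydrogenases, read 23.2, 24.4, 20.9, 20.4 and 20.3 in B2D and 82.7, 64.4, 70.3 and 69.9 in B2D+FF (3.29-fold, with 46.5% of its sequence shared). Its partner Etfdh, which hands the electrons to ubiquinone, was at 82.1 ± 9.41 and 86.5 ± 12.7, a log2 difference of 0.07 ± 0.14 (limma adjusted p = 0.722).

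The uncoupling proteins Ucp2 and Ucp3, inner-membrane carriers that respond to fatty acids, were among the steepest rises of this list. Ucp2 read 4.04, 4.87, 3.64, 4.91 and 3.98 in B2D and 27, 24.5, 27.1 and 28.5 in B2D+FF. Both groups were tight and did not overlap (6.24-fold, limma adjusted p = 3.75e-08). Ucp3, which is known mainly from muscle, read 0, 0.26, 0.0707, 0 and 0 in B2D and 5.85, 1.52, 3.13 and 5.68 in B2D+FF (limma adjusted p = 8.48e-05), and the untreated libraries held at most 14 reads of it. Ucp3 passed the filter only through B2D+FF, which fixed its direction. Skeletal muscle markers were near 0 in both groups, with sums of 0.143 to 1.29 in B2D and 0.332 to 2.78 in B2D+FF.

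Peroxisomal β-oxidation, which shortens very long chains, had 17 of 24 genes higher and 1 lower (median 0.66, and 0.64 with the trend removed). Ech1, an isomerase that readies unsaturated chains for oxidation (chr7:28825217-28832247), read 212, 244, 187, 256 and 213 in B2D and 613, 438, 495 and 555 in B2D+FF. All treated mice were above all untreated ones, and the mean rose 2.36-fold (log2 difference 1.24 ± 0.14, limma adjusted p = 8.81e-05). Ehhadh, a bifunctional enzyme of the cycle (chr16:21761287-21787807), read 1416, 1666, 2990, 2111 and 1091 in B2D and 7201, 4899, 5781 and 9098 in B2D+FF. It rose 3.64-fold with no overlap (limma adjusted p = 0.000405). The thiolase Acaa1b, with 49.5% shared sequence, rose 2.49-fold. Of 20 peroxisome assembly genes 9 were higher and none lower (median 0.37), led by Pex11a, which promotes peroxisome division and rose 2.84-fold from 78.2 ± 8.45 to 222 ± 38.4.

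RNA of genes for the storage of fatty acids as triglyceride and its release rose as well. Of 24 lipid droplet and triglyceride genes 17 were higher and none lower (median 0.80, and 0.71 with the trend removed). Triglyceride itself was not measured here. Mogat1, a monoacylglycerol acyltransferase (chr1:78510991-78538173), read 0.47, 0.784, 0.534, 0.681 and 1.45 in B2D and 21.9, 19, 24 and 26.3 in B2D+FF. It was low in every untreated mouse and 29.1-fold higher in the treated mean (limma adjusted p = 2.38e-08). Plin2, which coats the droplets of hepatocytes, read 235, 294, 230, 324 and 187 in B2D and 459, 299, 443 and 514 in B2D+FF. Treated mouse 2 fell inside the untreated range, and the rise was 1.69-fold (log2 difference 0.75 ± 0.20, limma adjusted p = 0.0127). Fitm1, which helps droplets bud from the endoplasmic reticulum, rose 5.82-fold, and Pnpla2, the main triglyceride lipase, 2.52-fold.

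Other known PPARα targets were split between large rises and no detectable change. Pdk4, the kinase that shuts off pyruvate dehydrogenase in fasting (chr6:5483351-5496309), read 16.9, 18.1, 10.4, 10 and 4.81 in B2D and 294, 59.4, 195 and 310 in B2D+FF. All treated mice were above the untreated ones although treated mouse 2 was far below the other treated mice, and the mean rose 17.8-fold (log2 difference 3.92 ± 0.46, limma adjusted p = 0.000101). Aqp3, an aquaglyceroporin that passes glycerol, read 0.944, 1.43, 0.515, 0.663 and 0.478 in B2D and 17.8, 12.5, 18.6 and 22.2 in B2D+FF, a 22.1-fold rise without overlap. Fbp2, the muscle form of fructose bisphosphatase, rose 12.2-fold and Hsd17b11, an enzyme found on lipid droplets, 4.74-fold. Of the 20 genes of this list 12 were higher and none lower (median 0.66), and of the 19 above the filter in both groups 11 and none (median 0.63).

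Several of the best known PPARα targets of the fasting response were not called. Cpt1a, which commits fatty acids to mitochondrial oxidation, read 243, 276, 276, 326 and 263 in B2D and 197, 162, 243 and 252 in B2D+FF. Treated mice 1 and 2 were below every untreated mouse and treated mouse 4 was not, and the log2 difference was -0.39 ± 0.15 (limma adjusted p = 0.0757). Angptl4, a secreted inhibitor of lipoprotein lipase, read 92.4, 98.5, 72.6, 89.6 and 78.7 in B2D and 74.2, 55, 69.6 and 85.2 in B2D+FF (log2 difference -0.29 ± 0.15, limma adjusted p = 0.156). Its groups overlapped, with treated mouse 2 the lowest of all. In the ketogenesis list 3 of 7 genes were higher and none lower (median 0.28).

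Fgf21, the fasting hormone encoded at chr7:45613886-45615490, read 23, 25.3, 24.1, 10.7 and 19.9 in B2D and 11.7, 17.6, 12.7 and 39.1 in B2D+FF. Treated mouse 4 was the highest of all 9 and the other treated mice lay within the untreated range, so the means of 20.6 ± 5.9 and 20.3 ± 12.8 hide a wide spread (limma adjusted p = 0.787). On the control diet Fgf21 fell from 14.7 ± 3.04 to 2.64 ± 1.65 (log2 difference -2.21, limma adjusted p = 4.57e-05). The difference between the diets was 2.07 ± 0.46 and missed the threshold (limma adjusted p = 0.0564).

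The receptor itself was level. Ppara read 44.1, 41.7, 53.5, 52.6 and 36.3 in B2D and 38.9, 42.8, 48.6 and 55.6 in B2D+FF, so the ranges lay over each other and the log2 difference was 0.03 ± 0.15 (limma adjusted p = 0.903). Its partner Rxra read 102, 91.1, 93.4, 79.6 and 86.5 in B2D and 64.7, 76.9, 67.4 and 62.3 in B2D+FF. It was lower without overlap (log2 difference -0.41 ± 0.12, limma adjusted p = 0.0202), a call that was lost without B2D+FF mouse 1 or 4 (adjusted p up to 0.0738). The coactivator acetyltransferases Ep300 and Crebbp were also lower, by -0.45 and -0.40, while Rxrb was higher by 0.58 on the log2 scale. Of 19 PPARs, partners and coregulators 1 was higher and 6 lower (median -0.21), and 2 and 4 in the trend-removed fit (median -0.13). These are long genes, and all genes of the same length classes had a median of -0.10.

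**Figure D3:**
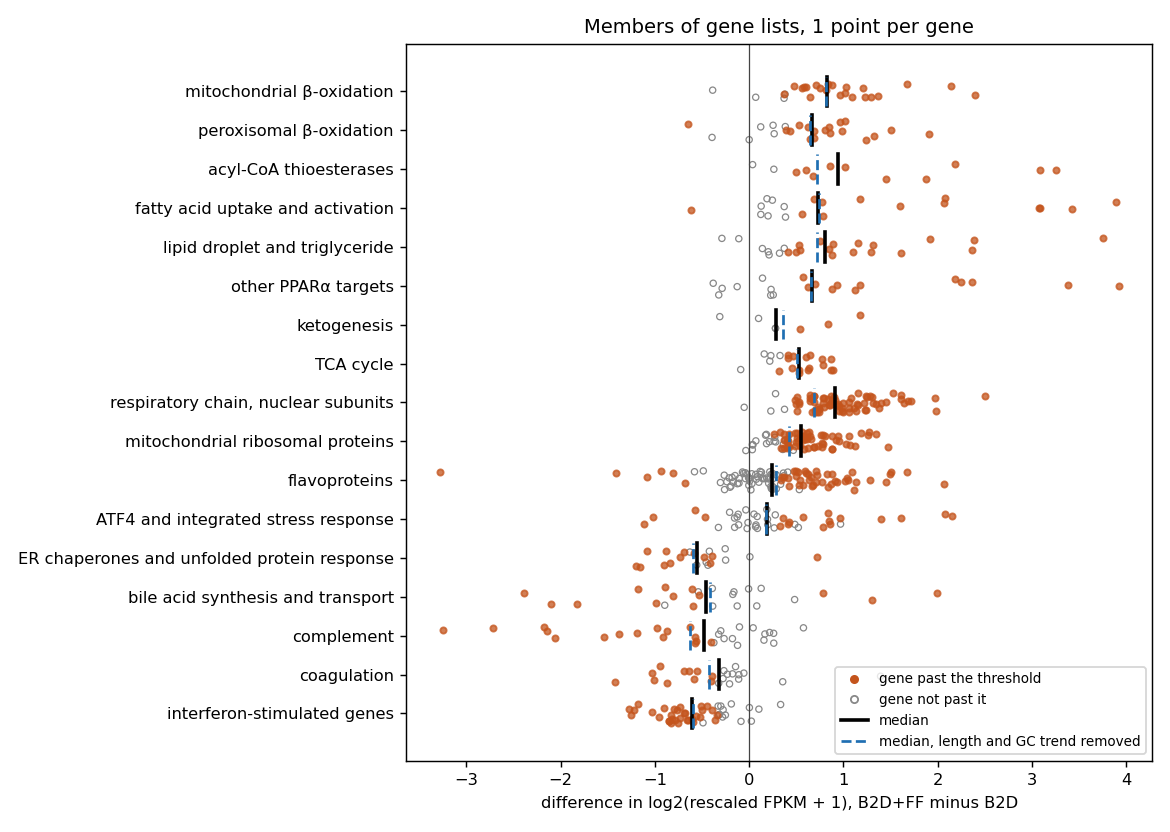
Difference in log2(rescaled FPKM + 1), B2D+FF minus B2D (x axis), for the tested members of 17 gene lists (rows), 1 point per gene. Filled points passed the threshold and open points did not, the solid bar is the median and the dashed bar the median with the length and GC trend removed. Lists of fatty acid use and the respiratory chain lie to the right of 0, and complement, interferon and ER chaperone lists to the left.

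Nuclear genes of the respiratory chain had the largest share of higher members of the lists examined. Of 76 tested subunits 72 were higher and none lower, with a median log2 difference of 0.91. These are short genes: all genes of the same length classes had a median of 0.17, and in the trend-removed fit 70 were higher and none lower with a median of 0.69. Among the 45 subunits with little shared sequence 43 were higher. Ndufa3, an accessory subunit of complex I, read 41.3, 48, 23.8, 39 and 29.7 in B2D and 189, 142, 127 and 119 in B2D+FF (3.97-fold, limma adjusted p = 4.05e-05). Every treated mouse was far above every untreated one. Cox6b2, a form of a complex IV subunit known from testis, read 1.79, 2.2, 0.951, 0.958 and 1.58 in B2D and 34.3, 22, 29.7 and 37.9 in B2D+FF (20.7-fold, limma adjusted p = 9.67e-08). On the control diet 57 of 76 were higher and none lower, with a median of 0.60.

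Most subunits encoded by mitochondrial DNA were not called. Of 13 tested, 3 were higher and none lower (median 0.17), and in the trend-removed fit 2 were higher and 3 lower (median -0.15). In mice on the control diet 10 of the 13 were higher and none lower (median 0.59). Mitochondrial reads took 5.82 to 9.41% of each B2D library and 6.71 to 8.78% of each B2D+FF library (exact permutation p = 0.81, two-sided, 5 against 4 mice). Mitochondrial ribosomal proteins rose, with 61 of 77 higher and none lower (median 0.55, and 0.42 with the trend removed), and so did the TCA cycle, with 16 of 21 higher and none lower (median 0.53). Mdh2, the malate dehydrogenase of the cycle, rose 1.86-fold and Idh3b 1.72-fold. On the control diet 4 of 21 TCA cycle genes were higher (median 0.20), and no gene of this list was called for a difference between the diets.

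Slc25a4, the heart and muscle form of the ADP/ATP carrier (chr8:46206797-46211284), exports ATP from mitochondria and has little shared sequence. It read 1.71, 2.74, 1.04, 1.5 and 1.62 in B2D and 67, 36.3, 29 and 50.4 in B2D+FF. The treated range began more than 10 times above the highest untreated mouse, and the log2 difference was 4.06 ± 0.23 (limma adjusted p = 2.36e-07).

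Flavoproteins, the enzymes that need FAD or FMN, moved in both directions with an excess of rises. Of 118 members 105 were tested, 41 were higher and 6 lower, with a median log2 difference of 0.25 (46 and 6 in the trend-removed fit, median 0.28). Among the 102 above the filter in both groups 39 were higher and 5 lower. Besides Acadm and Etfb, the higher members included Aifm2, a ubiquinone reductase of lipid droplets and membranes, which rose 2.58-fold, and Hao2, a peroxisomal hydroxy acid oxidase. Hao2 read 0.0255, 0.0568, 0, 0 and 0 in B2D, at most 2 reads a library, and 2.2, 5.83, 2.71 and 3.05 in B2D+FF (limma adjusted p = 9.09e-06). It was nearly silent in every untreated mouse and present in every treated one, but it passed the filter only through B2D+FF, which fixed its direction. Gulo, the last enzyme of vitamin C synthesis, went the other way, with 76.2, 52, 88.2, 71.7 and 61.2 in B2D and 25.5, 37.4, 42 and 39.4 in B2D+FF. No values overlapped, and the mean was 1.94-fold lower (limma adjusted p = 0.00241).

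Genes for the steps that turn riboflavin into its cofactors were mildly raised. Rfk, the kinase that makes FMN, read 19.2, 20.8, 23.2, 24.8 and 19.7 in B2D and 33.9, 36, 32.2 and 31.4 in B2D+FF. The groups were separate and the rise was 1.55-fold (log2 difference 0.61 ± 0.11, limma adjusted p = 0.00169). Slc52a2, a riboflavin transporter of the cell membrane, read 3.05, 3.51, 2.83, 3.55 and 1.99 in B2D and 6.1, 3.72, 5.66 and 6.59 in B2D+FF, close to touching at treated mouse 2 (1.85-fold, limma adjusted p = 0.00647). Flad1, the FAD synthase, was higher by 0.34 ± 0.12 on the log2 scale (limma adjusted p = 0.0448), and this call stood only in the fit without B2D+FF mouse 2 among the 9 left-out fits (adjusted p up to 0.138). Slc25a32, the mitochondrial flavin carrier, was not called (log2 difference 0.19 ± 0.23).

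Genes of the integrated stress response, which couple amino acid shortage or other stress to the factor ATF4, rose in part. Of 51 members 41 were tested, 14 were higher and 4 lower, with a median log2 difference of 0.19 (15 and 4, median 0.17, with the trend removed). A share of 14 in 41 stands beside the 19.7% of all genes. Psat1 and Chac1 passed the filter only through B2D+FF and so had to be higher there, and among the 38 members above the filter in both groups 12 were higher and 4 lower. On the control diet 4 were higher and 7 lower, with a median of -0.08. Psat1, an aminotransferase of serine synthesis (chr19:15904678-15947337), read 0.246, 0.328, 0.209, 0.154 and 0.157 in B2D and 1.71, 1.38, 0.897 and 0.913 in B2D+FF. It was low in both groups but did not overlap, with 13 to 24 reads in B2D libraries and 77 to 119 in B2D+FF libraries (5.59-fold, limma adjusted p = 0.000238). Chac1, which degrades glutathione (chr2:119351229-119354381), read 0.224, 0.249, 0, 0.216 and 0.157 in B2D and 1.34, 1.5, 2.09 and 3.91 in B2D+FF (log2 difference 1.40 ± 0.18, limma adjusted p = 0.000213). At most 7 reads lay behind each untreated value.

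Trib3, a pseudokinase induced by ATF4, read 5.81, 4.98, 4.91, 7.04 and 3.53 in B2D and 10.3, 7.25, 10.7 and 12.5 in B2D+FF. The lowest treated mouse was just above the highest untreated one (1.94-fold, limma adjusted p = 0.00383). Ddit4, an inhibitor of mTORC1, read 7.99, 7.59, 3.54, 12 and 4.43 in B2D and 31.4, 8.52, 43.5 and 19.6 in B2D+FF, where treated mouse 2 overlapped (limma adjusted p = 0.0111). Asns, the asparagine synthetase, was higher by 0.78 ± 0.24 (limma adjusted p = 0.03), a call lost without B2D mouse 3 or 5 or B2D+FF mouse 1 or 4 (adjusted p up to 0.0911). The Atf4 transcript read 31.7, 33.5, 24.7, 27.6 and 27.8 in B2D and 31.3, 40, 27.7 and 35.2 in B2D+FF. These ranges overlap (log2 difference 0.20 ± 0.13, limma adjusted p = 0.286), and ATF4 is known to be controlled mainly through translation, which was not measured here. Ddit3 was not called (log2 difference -0.04 ± 0.27, limma adjusted p = 0.928), and Phgdh was below the filter.

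ATF4 and its C/EBP partners bind a composite element, searched here as TTNCATCA or its reverse complement in the 300 bases from 250 before to 50 after each start in RefSeq. It was present in 10 of the 33 tested members, of 41, that matched a RefSeq promoter (30.3%), in 4 of the 11 that were higher and in 6 of the 22 that were not, against 1219 of 27025 genes (4.51%). The 60-base windows of 2 genes that rose (Chac1 and Vldlr) and of 2 that were not called (Atf3 and Fgf21) are shown because the same element stands in both kinds, written 5′ to 3′ on the gene's strand with the match in capitals, on GRCm38.p6 at chr2:119351023-119351082, chr19:27216794-27216853, chr1:191183410-191183469 and chr7:45615596-45615655 in that order (Chac1 and Vldlr on the plus strand, Atf3 and Fgf21 on the minus strand).
Chac1: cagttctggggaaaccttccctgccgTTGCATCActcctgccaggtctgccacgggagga
Vldlr: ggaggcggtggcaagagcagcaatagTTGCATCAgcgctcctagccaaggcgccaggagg
Atf3: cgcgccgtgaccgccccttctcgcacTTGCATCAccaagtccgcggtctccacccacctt
Fgf21: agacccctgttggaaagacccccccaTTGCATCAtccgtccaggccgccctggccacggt
All 4 carry the same 8 letters, at 110 to 200 bases before the start. Vldlr was higher by 2.08 ± 0.17 (limma adjusted p = 5.89e-06) and also belongs to the fatty acid uptake list, whereas Atf3, named after its value was seen, had a log2 difference of 0.97 (limma adjusted p = 0.204). An exact direct repeat of AGGTCA with 1 base between, a form of the PPAR element, was found in none of the 123 matched fatty acid genes and in 13 of the 27025 genes (0.0481%), so these windows hold too few exact copies to compare.

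Genes of endoplasmic reticulum chaperones fell. Of 21 tested, 12 were lower and 1 higher, with a median of -0.56 (12 and 1, median -0.60, with the trend removed). Hspa5, the main lumenal chaperone, read 152, 75.9, 231, 137 and 147 in B2D and 65.4, 84.1, 61.6 and 54.2 in B2D+FF. Untreated mouse 2 and treated mouse 2 crossed, and the mean was 2.24-fold lower (limma adjusted p = 0.00782). Calr fell without overlap to 80 ± 5.8 from 145 ± 21.7, and Dnajb9, a cochaperone induced by the unfolded protein response, was the member that was higher (1.66-fold, limma adjusted p = 0.00801, 12.2% shared). Without B2D mouse 3 the list had 8 lower and 1 higher. On the control diet 16 were lower and 1 higher.

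Among genes of glucose production and glycolysis 9 of 35 were higher and 6 lower, with a median of 0.06. The gluconeogenic enzyme Pck1 read 1423, 1001, 1511, 988 and 1233 in B2D and 796, 892, 1311 and 1011 in B2D+FF, with overlapping groups (log2 difference -0.30 ± 0.19, limma adjusted p = 0.24). G6pc, which releases free glucose, read 206, 93.9, 152, 86.8 and 167 in B2D and 247, 174, 287 and 177 in B2D+FF. Untreated mouse 1 lay inside the treated range (log2 difference 0.69 ± 0.26, limma adjusted p = 0.0626). Pgam1, a mutase of glycolysis with 37.1% shared sequence, rose 3.17-fold, and Mpc1, a subunit of the mitochondrial pyruvate carrier with 29% shared, fell to 20.4 ± 2.95 from 57.7 ± 11.9. Gapdh read 293, 231, 263, 404 and 231 in B2D and 2.74, 4.02, 32.2 and 12.4 in B2D+FF. It is a gene that hepatocytes use throughout, it has many processed copies, and 27.5% of its sequence is shared, so its level in B2D+FF is uncertain.

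Amino acid breakdown and urea cycle genes were also divided, with 17 of 62 higher and 10 lower and a median of 0.06, near that of all genes. Prodh2, the hydroxyproline dehydrogenase and a flavoprotein, rose 2.07-fold, Gpt, the alanine aminotransferase, 1.77-fold, and Bckdhb, a subunit of the branched-chain ketoacid dehydrogenase, 1.77-fold. Cbs, the first enzyme of transsulfuration, fell from 104 ± 25.5 to 50.8 ± 3.7 (limma adjusted p = 0.00132). Gpt2, the mitochondrial aminotransferase, had a log2 difference of 0.19 (limma adjusted p = 0.364). Ivd, the isovaleryl-CoA dehydrogenase, was higher by 0.52 (limma adjusted p = 0.0145), which was lost without B2D+FF mouse 4 (adjusted p = 0.0534).

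Genes of secreted proteins of innate defence fell. Of 30 tested complement genes 16 were lower and none higher (median -0.48, and -0.63 with the trend removed, against 11.9% of all genes lower). C9, the pore-forming terminal component (chr15:6445327-6498751), read 37.9, 36.4, 89.7, 26 and 54.5 in B2D and 2, 4.81, 6.03 and 3.32 in B2D+FF. The highest treated mouse was far below the lowest untreated one (12.1-fold lower, log2 difference -3.25 ± 0.33, limma adjusted p = 3.26e-05). C8b, which joins the same complex (chr4:104766317-104804548), read 61.2, 42.2, 104, 26.7 and 66.1 in B2D and 8.79, 7.55, 7.88 and 5.73 in B2D+FF (8.01-fold lower, limma adjusted p = 6.68e-05). In coagulation 11 of 23 genes were lower and none higher (median -0.32), with F11 at 9.14 ± 1.58 and 2.86 ± 1.08 and fibrinogen Fga at 983 ± 103 and 540 ± 97.9.

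**Figure D4:**
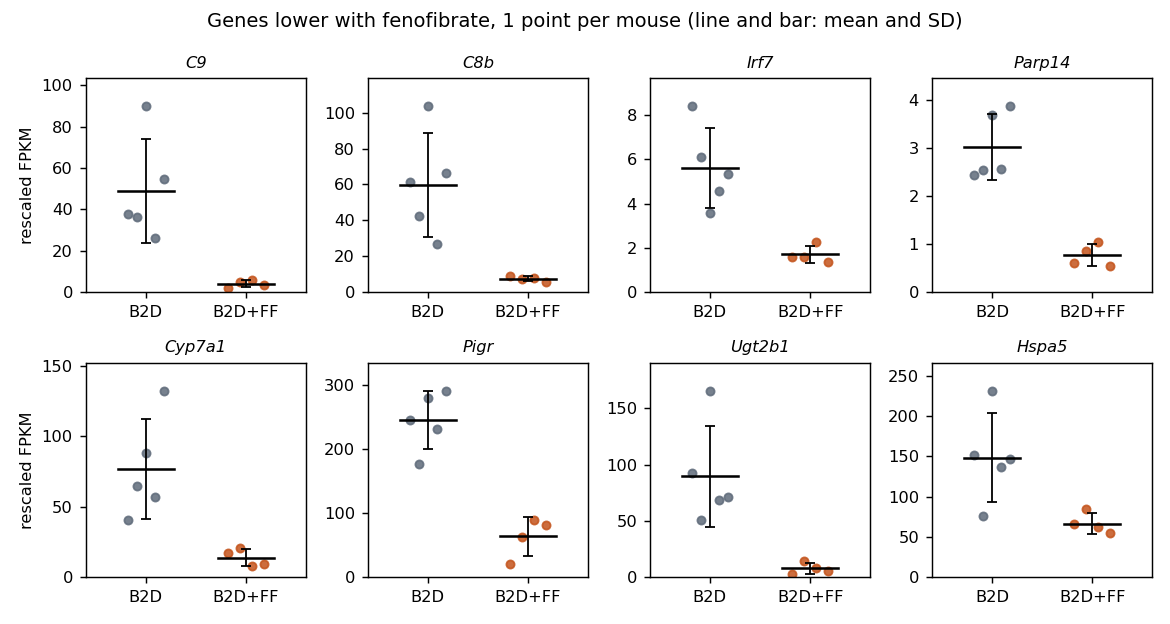
Rescaled FPKM (y axis) of 8 genes that were lower with fenofibrate in each of the 5 B2D and 4 B2D+FF mice, 1 point per mouse, with the mean (line) and SD (bar). All but Hspa5 show no overlap between the groups.

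Interferon-stimulated genes fell widely, with 32 of 46 lower and none higher (median -0.60, and 29 and none with the trend removed). Of the 46, 7 passed the filter only through B2D and so could only be lower, and among the other 39 the count was 27 lower and none higher. Irf7, the factor that sustains interferon production, read 8.4, 6.13, 3.6, 4.56 and 5.34 in B2D and 1.58, 1.59, 2.28 and 1.36 in B2D+FF. All treated mice were below all untreated ones (3.29-fold lower, limma adjusted p = 0.00042). Parp14, an ADP-ribosyltransferase of this set, read 2.44, 2.54, 3.69, 2.57 and 3.86 in B2D and 0.616, 0.86, 1.05 and 0.547 in B2D+FF (3.92-fold lower, limma adjusted p = 8.81e-05). The control diet gave 37 lower of 50 and a median of -0.63. Acute-phase proteins had 5 of 26 higher and 5 lower (median -0.38), and 4 higher and 11 lower with the trend removed (median -0.57). The 24 above the filter in both groups had 5 higher and 4 lower (median -0.21). Members ranged from Orm3, an orosomucoid, which rose 10.5-fold, to Serpina3k, which fell to 1597 ± 258 from 4493 ± 881 and shares 25.2% of its sequence.

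Bile acid genes were lower at the entry of the classical pathway. Cyp7a1, the rate-limiting enzyme of bile acid synthesis, read 40.6, 64.8, 88.4, 56.9 and 132 in B2D and 17.1, 20.3, 7.65 and 9.43 in B2D+FF. The groups did not overlap (5.62-fold lower, log2 difference -2.39 ± 0.34, limma adjusted p = 0.000331). Cyp8b1, which makes the cholic acid branch, was at 565 ± 121 and 609 ± 181 (limma adjusted p = 0.803). Klb, the FGF co-receptor of hepatocytes, fell 2.01-fold to 5.87 ± 0.147. Abcc4, an efflux pump for bile acids, rose 11.8-fold but passed the filter only through B2D+FF. In all 10 of 24 genes were lower and 3 higher (median -0.46), and of the 23 above the filter in both groups 10 and 2 (median -0.53).

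Genes of lipid synthesis and export moved unevenly. Of 23 fatty acid synthesis genes 8 were higher and 3 lower (median 0.37), with Thrsp, a regulator of lipogenesis, 3.59-fold higher and Elovl2, which elongates polyunsaturated chains, lower by -1.35 on the log2 scale. Scd1, the stearoyl-CoA desaturase, read 430, 331, 638, 79.1 and 249 in B2D and 530, 804, 499 and 908 in B2D+FF, where untreated mouse 3 lay within the treated range (limma adjusted p = 0.0667). Of 23 cholesterol genes 9 were higher and 1 lower (median 0.39). Apolipoproteins had 2 of 20 higher and 5 lower (median -0.26). Apoa4, a fasting-induced apolipoprotein, read 300, 1328, 705, 2268 and 644 in B2D and 55.2, 56.1, 84.2 and 48 in B2D+FF. It was lower in all treated mice (17.2-fold, limma adjusted p = 0.000109), with 75% of its sequence shared. Pltp, the phospholipid transfer protein, rose 4.85-fold.

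Drug-metabolism genes were raised in part. Of 27 targets of the xenobiotic receptors CAR and PXR 14 were higher and 3 lower (median 0.52, and 11 and 4 with the trend removed), but 18 of the 27 share sequence. The 25 above the filter in both groups had 12 higher and 3 lower. Cyp2b10, the usual reporter of CAR, read 2.11, 2.48, 2.57, 10.4 and 0.682 in B2D and 49.8, 42.5, 37 and 50.7 in B2D+FF. Its groups did not overlap (12.4-fold, limma adjusted p = 6.68e-05, 17.9% shared), and the summed Cyp2b family took 15.5 to 306 of every 1000000 reads in B2D and 435 to 595 in B2D+FF. Targets of NRF2, the factor of the antioxidant response, had 16 of 31 higher and 1 lower (median 0.44), and 14 and 1 among the 29 above the filter in both groups. Cbr1, a carbonyl reductase, read 59.2, 58.7, 65.3, 54.9 and 51.2 in B2D and 205, 183, 137 and 200 in B2D+FF (3.13-fold, limma adjusted p = 1.15e-05). Every treated mouse was more than 2 times the highest untreated one.

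Genes that differ between male and female mouse liver had other counts without shared sequence. Of 26 male-biased genes 8 were higher and 10 lower (median -0.37), but 17 of them share sequence, and among the other 9 the count was 1 higher and 5 lower (median -1.43). Of 26 female-biased genes 11 were higher and 7 lower (median 0.30), and among the 16 with little shared sequence 7 and 7. With only genes above the filter in both groups, 7 of 25 male-biased genes were higher and 10 lower. The female-biased count was then 9 higher and 5 lower of 22. Ugt2b1, a male-biased glucuronosyltransferase, read 92.5, 50.8, 165, 68.4 and 70.7 in B2D and 2.92, 14, 8.1 and 5.41 in B2D+FF, with no overlap (11.8-fold lower, limma adjusted p = 6.12e-05). The major urinary proteins, secreted pheromone carriers, share most of their sequence and split in direction, with Mup3 at 3744 ± 1368 and 86.4 ± 51.2 and Mup18 at 0.067 ± 0.0908 and 266 ± 99.2, so their sum is given. It was 2299 to 7380 per 1000000 reads in B2D and 693 to 1476 in B2D+FF, lower in all treated mice. Growth hormone signalling had 1 of 10 genes higher and 2 lower.

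Of 14 genes of periportal hepatocytes, which surround the entering blood, 6 were lower and none higher (median -0.53), beside 11.9% of all genes lower. Pigr, the polymeric immunoglobulin receptor, read 246, 177, 281, 232 and 291 in B2D and 20.6, 63.1, 88.4 and 82 in B2D+FF, all treated values being lower (3.86-fold, limma adjusted p = 0.000983). Of 11 pericentral genes 2 were higher and 2 lower, shares near those of all genes, with Cyp1a2 falling to 32 ± 7.73 from 62.9 ± 15.4. Among the 10 above the filter in both groups 1 was higher and 2 lower. Clock genes had 3 of 19 higher and 2 lower, shares near those of all genes. Their median was 0.13, with members from -1.73 to 1.52 on the log2 scale, so the list as a whole did not fall. Nr1d1, the repressor REV-ERBα, read 31.1, 25.1, 30.6, 19.8 and 26 in B2D and 9.71, 9.46, 4.51 and 6.28 in B2D+FF (3.54-fold lower, limma adjusted p = 9.23e-05), and Dbp fell as well, to 7.61 ± 3.11 from 17.9 ± 3.79.

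Outside these programs 3 further genes were named because they were among the largest rises of called genes without overlap. That choice fixed both the large rise and the lack of overlap, so neither is a separate result. Otop1, a proton channel (chr5:38275972-38304217), read 0, 0.22, 0, 0 and 0 in B2D and 14, 7.16, 18.2 and 25 in B2D+FF (log2 difference 3.92 ± 0.25, limma adjusted p = 8.7e-07). Among untreated libraries only that of mouse 2 held reads of it, 13 in all. Otop1 passed the filter only through B2D+FF, which fixed its direction. Slc39a5, a zinc transporter, read 1.46, 1.05, 1.52, 1.89 and 1.43 in B2D and 33.3, 33.4, 30 and 29 in B2D+FF (21.4-fold, limma adjusted p = 2e-09). Ly6d, a GPI-anchored surface protein, read 3.73, 8.36, 3.8, 19.8 and 2.49 in B2D and 72.9, 88.1, 83.7 and 114 in B2D+FF (11.7-fold, limma adjusted p = 7.49e-05).

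The same drug difference was measured on the control diet, where 1755 of 10751 genes (16.3%) were higher in Ctrl+FF than in Ctrl and 1354 (12.6%) were lower, in 1 fit of all 18 libraries. Drug, age and table are confounded on the control diet as well. A shift common to all libraries of an experiment thus cancels in the contrast of the 2 differences. The added weeks on the diet need not cancel, because only on the deficient diet are they weeks without riboflavin. The contrast therefore cannot part a longer deficiency from the drug. That contrast passed the threshold for 43 genes (0.4%), 26 with a more positive and 17 with a more negative difference on the deficient diet. Of the 43 genes 13 share sequence, and 22 were called in every one of 18 fits that each left out a library. On the scale of all 18 libraries, Slc25a4 was at 2.11 ± 0.291 in Ctrl (n = 5) and 6.51 ± 1.78 in Ctrl+FF (n = 4), and its rise was larger on the deficient diet by 2.81 ± 0.29 on the log2 scale (limma adjusted p = 2.67e-05). The gene thus rose on both diets and most on the deficient one.

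Among the other named genes that differed between the diets, Hao2 was at 0.0269 ± 0.034 in Ctrl and 0.536 ± 0.329 in Ctrl+FF, and its difference was larger on the deficient diet by 1.50 ± 0.22 (limma adjusted p = 0.0027). Psat1 was at 0.174 ± 0.0176 and 0.271 ± 0.129 on the control diet, where it was not called (adjusted p = 0.432), and its difference was larger by 0.74 ± 0.14 on the deficient diet (limma adjusted p = 0.0157). For Cbr1 the control-diet values were 41.6 ± 10.7 and 55.8 ± 6.57, and the difference between diets was 1.17 ± 0.22 (limma adjusted p = 0.0157), called in 15 of 18 left-out fits. Cyp2b10 was at 0.0756 ± 0.0572 in Ctrl and 1.64 ± 1.13 in Ctrl+FF, with a difference between diets of 2.40 ± 0.50 (limma adjusted p = 0.0384), called in 5 of 18 left-out fits. On the same scale its means were 3.64 in B2D and 44.8 in B2D+FF. Relative to the untreated mean it therefore rose more on the control diet, and the contrast depends on the 1 added to values near 0 in Ctrl. Mup3, with shared sequence, had a difference of -3.35 ± 0.59 (limma adjusted p = 0.0114). In the fatty acid lists the contrast was called for 1 gene, the thioesterase Acot6, named after its value was seen. Its rise was smaller on the deficient diet by -0.55 ± 0.11 (limma adjusted p = 0.033), called in 7 of 18 left-out fits and not with the trend removed (limma adjusted p = 0.0635), and 10.5% of its sequence is shared. No other member was called, and a p that misses the threshold does not show that the diets gave the same rise.

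**Figure D5:**
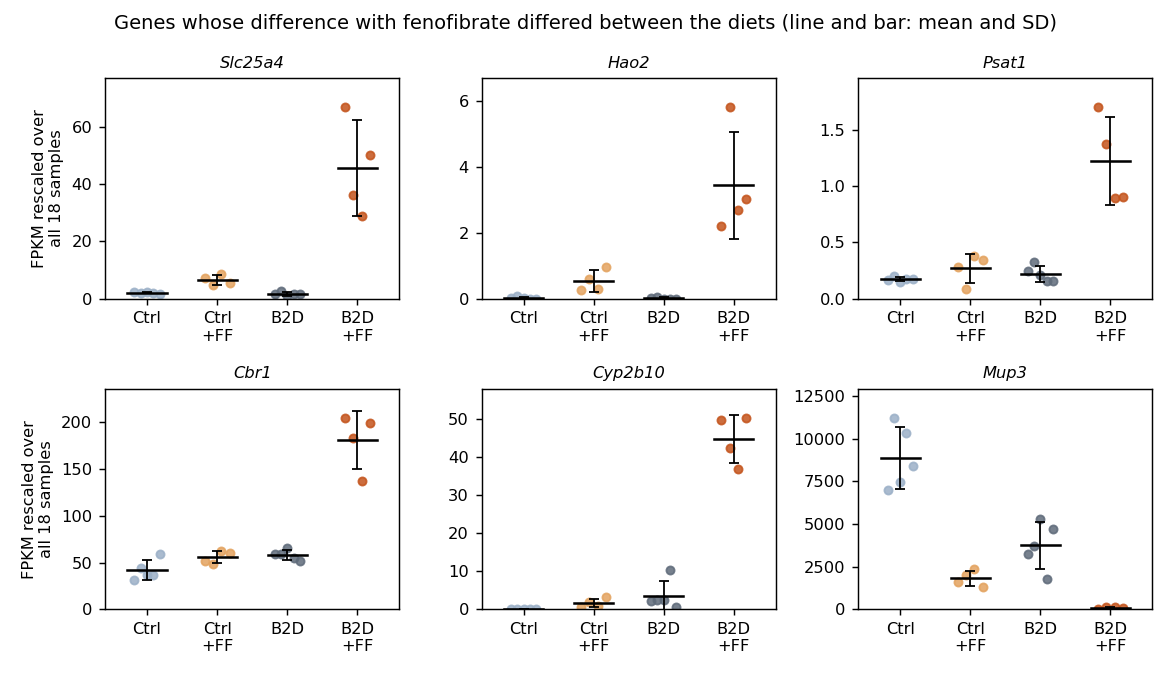
FPKM rescaled over all 18 libraries (y axis) of 6 genes in each mouse of the 4 groups, with the mean (line) and SD (bar). Slc25a4, Hao2, Psat1, Cbr1 and Cyp2b10 are highest in B2D+FF, and Mup3, with shared sequence, is lowest there.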

How the data were processed

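Total liver RNA of 18 mice (1 library per mouse) was sequenced as paired-end mRNA libraries, and the 9 libraries of the deficient diet were compared. Per the labels and the methods of the study, the authors aligned reads with STAR to mm10 and counted them with featureCounts. The deposited values are FPKM per gene, in 1 table for the mice without and 1 for those with fenofibrate. The methods speak of RPKM. Tool versions and the use of strand are not given in the sources used here. Multiplied by gene length, 100% of the deposited values above 0 were whole multiples of 1 read, within 0.02, which gave the reads per gene. Between 15320729 and 21898502 reads on genes lay behind each library used.

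The tables were joined on gene identifier and rescaled with 1 factor per library (the median ratio to the geometric mean over 12279 protein-coding genes above 0 in all 9). Of 54532 genes, 22046 were protein coding and those with a mean of at least 0.5 in either group (10548) were tested with limma 3.58.1 in R 4.3.3, on log2(FPKM + 1) with a trend in the variance and Benjamini-Hochberg adjustment over all genes tested. Of these, 373 passed the filter only through B2D and 314 only through B2D+FF, so those had to differ. The 2 diets were compared in 1 fit of 18 libraries, as a contrast of the 2 differences. Shared sequence is the percent of a gene's transcript 31-mers, sampled, that lie in transcripts of another gene. In the trend-removed fit a spline on log length and GC content was subtracted from each library. Both were added after the values were seen. The fit was tested on simulated data. Figures and tables were made in python 3.11.15.

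The members and gene lists were chosen with earlier results of these data known. Genes were named by a rule: the 15 largest rises and 15 largest falls among called genes without overlap (names of predicted genes left out), up to 4 called members per list with the smallest adjusted p, and a set of genes that carry the study's question. This gave 209 genes, 205 of them tested. Atf3 and the marker genes stand outside it. Results on some genes are not reported here. Families with near-identical copies (such as Cyp2b, Cyp4a, Mup, Acot1 to Acot6, Hba and Hbb) are uncertain by single member. Where every B2D library was at or near 0 no fold is given, and the log2 difference then depends on the 1 added. Mice were assigned to the diets at random, per the methods, but both groups compared here ate the same diet. Random assignment to fenofibrate is not described in the sources used here. The p-values weigh the difference between the groups against the spread between these mice.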

Additional observations from a re-analysis of the deposited data

Results flagged for a closer look

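In each group of 4 or 5 mice the highest and lowest value was compared with the rest by Dixon's criterion, over 158 groups. Chance flags about 1 in 20 groups, and 11 were flagged here. B2D mouse 2 was the highest of its group for Lpl (4.91), Fabp3 (1.98), Ucp3 (0.26), Otop1 (0.22), Fabp4 (18.2) and the summed adipocyte markers (16.6), and its library held 146 reads of Adipoq. B2D mouse 4 was the highest for Cd36 (108) and Cyp2b10 (10.4), and B2D mouse 5 the lowest for Acot2 (19.4). B2D+FF mouse 1 was the highest of its group for the summed neutrophil and monocyte markers (55.9) and the summed skeletal muscle markers (2.78). Each gene named here kept its call without the mouse concerned.

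The difference with fenofibrate itself differed between the diets, by the contrast of the 2 differences in limma, for Slc25a4 (2.81), Cyp2b10 (2.40), Hao2 (1.50), Cbr1 (1.17) and Psat1 (0.74), which were more positive on the deficient diet, and for Mup3 (-3.35), which was more negative, all on the log2 scale. The contrast for Cyp2b10 depends on the 1 added. Relative to their untreated levels, both this gene and the summed Cyp2b family rose more on the control diet. On each diet the treated and untreated mice also differ in age, weeks on the diet, gavage and the table that holds them. These cannot be told apart from the drug on either diet. On the deficient diet the added weeks are also weeks without riboflavin, so the contrast cannot part them from the drug.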

How the results depend on the processing

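Fixed size mattered most to the counts: 440 genes were higher and 139 lower with a log2 difference of at least 1. Fewer genes were lower with a mean of at least 5 (632), and more after upper-quartile scaling (2230) or at an unadjusted p under 0.05 (1914). Leaving out each mouse gave 1566 to 1996 higher genes and 792 to 1314 lower genes, with 792 lower without B2D+FF mouse 4 and 812 without B2D+FF mouse 1. The test on recovered reads (voom) gave 1986 higher and 1464 lower. Of the 43 genes that differed between diets, those more positive on the deficient diet (26) became 9 with a pseudocount of 0.1 and 11 to 37 when 1 mouse was left out (11 without Ctrl+FF mouse 2, 37 without B2D mouse 3). Those more negative (17) became 10 with that pseudocount, 10 without genes of shared sequence, and 12 to 27 when 1 mouse was left out (27 without B2D mouse 3). The causes were not tested, apart from the smaller number of genes or mice. The median of the acute-phase list turned to 0.0264 without genes of shared sequence and with the trend removed, and that of the hypoxia list to -0.0574 after upper-quartile scaling. No named gene changed direction after being called. Of 185 called named genes 161 kept the call under all 24 alternatives. No paired analysis was possible because the labels give the groups no shared replicate numbers. Genes below about 1 FPKM, such as Psat1 in B2D, rest on few reads, and intervals of such values are wide.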

Other observations

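Other lists moved little or are hard to read. Cytosolic ribosomal proteins had 43 of 82 members higher and 3 lower (median 0.54), but 73 of the 82 share sequence with another gene, and with the trend removed 33 were higher and 9 lower. Matrix genes had 1 of 13 higher and 6 lower (median -0.25), and 2 of the lower ones passed the filter only through B2D. Immediate-early genes had 4 of 18 higher and 1 lower, p53 targets 4 of 17 higher, and cell cycle genes 2 of 16 higher, both of which passed the filter only through B2D+FF. Hypoxia targets had 3 of 13 higher and 1 lower, and glucocorticoid-responsive genes 3 of 15 higher and 1 lower. Of all genes tested 19.7% were higher and 11.9% lower. The shares of higher genes in the immediate-early, p53, hypoxia and glucocorticoid lists were near the former, so these counts show no shift of the lists. Among single members of the lists Cdkn1a, a cell cycle inhibitor, was higher by 1.45 and Myc by 1.07 on the log2 scale. Fn1, the matrix protein fibronectin, fell by 0.68 and Timp2, a protease inhibitor, by 0.81 on the log2 scale.

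Of the cell type markers, 6 of 10 endothelial genes were lower and 1 higher, 2 of 11 stellate cell genes were lower, 1 of 3 cholangiocyte genes and the 1 B cell gene tested were lower, that B cell gene having passed the filter only through B2D. Of 5 erythroid genes 4 were higher, but all 5 share sequence, and 1 was higher with the trend removed. None of 13 Kupffer cell and macrophage genes and none of 4 neutrophil and monocyte genes was called, and 1 of 2 adipocyte genes was higher. The 1 muscle gene tested was not called, and no T cell, NK cell or exocrine pancreas gene reached the filter.

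Among 141 tested genes named as copies of a parent gene and paired with it by name, 119 were higher in B2D+FF and 2 lower. Most are annotated as processed pseudogenes, and some as unprocessed pseudogenes or as protein coding. Of the 86 parent genes of those higher copies 11 were lower and 30 higher. Of the 115 genes whose groups did not overlap and whose log2 difference was over 2 in size, 55 share sequence, as did 8 of the 15 largest rises and 9 of the 15 largest falls.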
